A study of Mus musculus with 10 samples.

Results

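Dyneins are the motor proteins that pull toward the minus ends of microtubules, and their genes fall into an axonemal branch that drives ciliary beating and a cytoplasmic branch that carries cargo. The genes described here are the 34 of 22180 measured genes whose platform symbol belongs to the families Dnah, Dnaic or Dnai, Dnal, Dnaaf, Dync and Dynl, each read from 1 probe set. Of 43 protein-coding RefSeq genes in these families 9, among them Dnah3, Dnah12 and Dnaaf2, had no probe set of their own and were not analysed here. They comprise 16 axonemal subunits, 6 factors that assemble axonemal dyneins and 12 cytoplasmic or shared subunits. In cells labelled Axin2+, 12 of the 16 axonemal genes were higher than in cells labelled SP-C+, each at least 2-fold, while the core of cytoplasmic dynein 1 was nearly level. Of all genes measured, 8.61% were called higher in limma, 17.6% were called in either direction, and 2.89% were called and at least 2-fold higher (0.338% were lower by as much). Of the 12 cytoplasmic or shared genes 4 were called higher, but only 1 reached 2-fold. This was the light chain gene Dynlrb2, 9.93-fold higher in Axin2+ arrays.

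Both groups were sorted from lungs of mice at postnatal day 4 of a background mixed from C57BL/6, 129S6 and CD-1. They are labelled as type 2 alveolar epithelial cells (AEC2s), the surfactant-making cells of the alveolus, and the labels name no treatment. The 5 SP-C+ samples came from SftpcCreERT2-R26REYFP mice, in which Cre driven by the surfactant protein C gene had switched on YFP, and were sorted on YFP after 24 h of lineage tracing. The 5 Axin2+ samples came from Axin2CreERT2-TdTomato mice, in which the Wnt target gene Axin2 drives Cre, and were sorted as TdTomato+, EpCAM+, CD31- and CD45- cells. Both lines carry CreERT2, an inducible Cre, so the lack of a treatment label does not mean that no inducer was given. No labelling interval is given for the Axin2+ cells in the sources used here, and a description shared by the samples also mentions other ages. The mouse line, reporter and gate change together with the group, so their effects cannot be told apart, and in bulk samples fewer cells of a type and less RNA per cell cannot be told apart either.

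In a motile cilium, outer and inner rows of dynein arms along the microtubule doublets slide the doublets past each other. Each arm is built from heavy chains, which are the ATPase motors, with intermediate and light chains at its base, and it is assembled in the cytoplasm by dedicated factors before it enters the cilium. In the lung these arms are the motors of multiciliated airway cells. Cytoplasmic dynein 1 works in practically every cell, moving vesicles and organelles and acting in mitosis, and dynein 2 returns material from the ciliary tip in intraflagellar transport.

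Values below are log2 probe set values as normalized by the authors, and differences are those of Axin2+ over SP-C+ arrays; the array medians lay between 5.89 and 5.97. Markers of several lung cell types moved with the group. All 12 AEC2 markers, Sftpc included, lay above the median gene of the array in both groups, and 0 were higher and 2 lower in Axin2+ arrays in limma (0 and 6 at an unadjusted p under 0.05). Sftpc, at means of 14.02 in SP-C+ and 14.11 in Axin2+ arrays, lay near the highest value on any array (14.16), which limits what its difference shows. Of 24 measured multiciliated cell markers 20 were higher and 0 lower (21 and 0 unadjusted), with the log2 of their summed signal between 11.08 and 11.40 in SP-C+ and between 13.34 and 13.56 in Axin2+ arrays. Of these 24, 18 lay below the median gene in SP-C+ arrays and 5 in Axin2+ arrays. Foxj1, the transcription factor of motile ciliogenesis, was 6.65 ± 0.38 (SD, n = 5) in SP-C+ and 8.76 ± 0.27 in Axin2+ arrays, while Mcidas, a regulator of the multiciliated fate, differed by -0.18 ± 0.10 SE and was not called. Higher markers also numbered 12 of 12 for type 1 alveolar cells, 5 of 8 for club cells and 8 of 11 for the cell cycle. They numbered 1 of 8 for leukocytes and 0 of 6 each for endothelium and mesenchyme, which also had 0 higher unadjusted. Lower markers numbered 1 for leukocytes (Adgre1, -0.26 ± 0.08 SE), 1 for mesenchyme (Pdgfra, -0.49 ± 0.13 SE) and 0 for the rest of these lists. Unadjusted, 2 were lower for leukocytes, 1 each for mesenchyme and club cells, and 0 for the rest. The part of these markers in the dynein results was not tested.

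**Figure D1:**
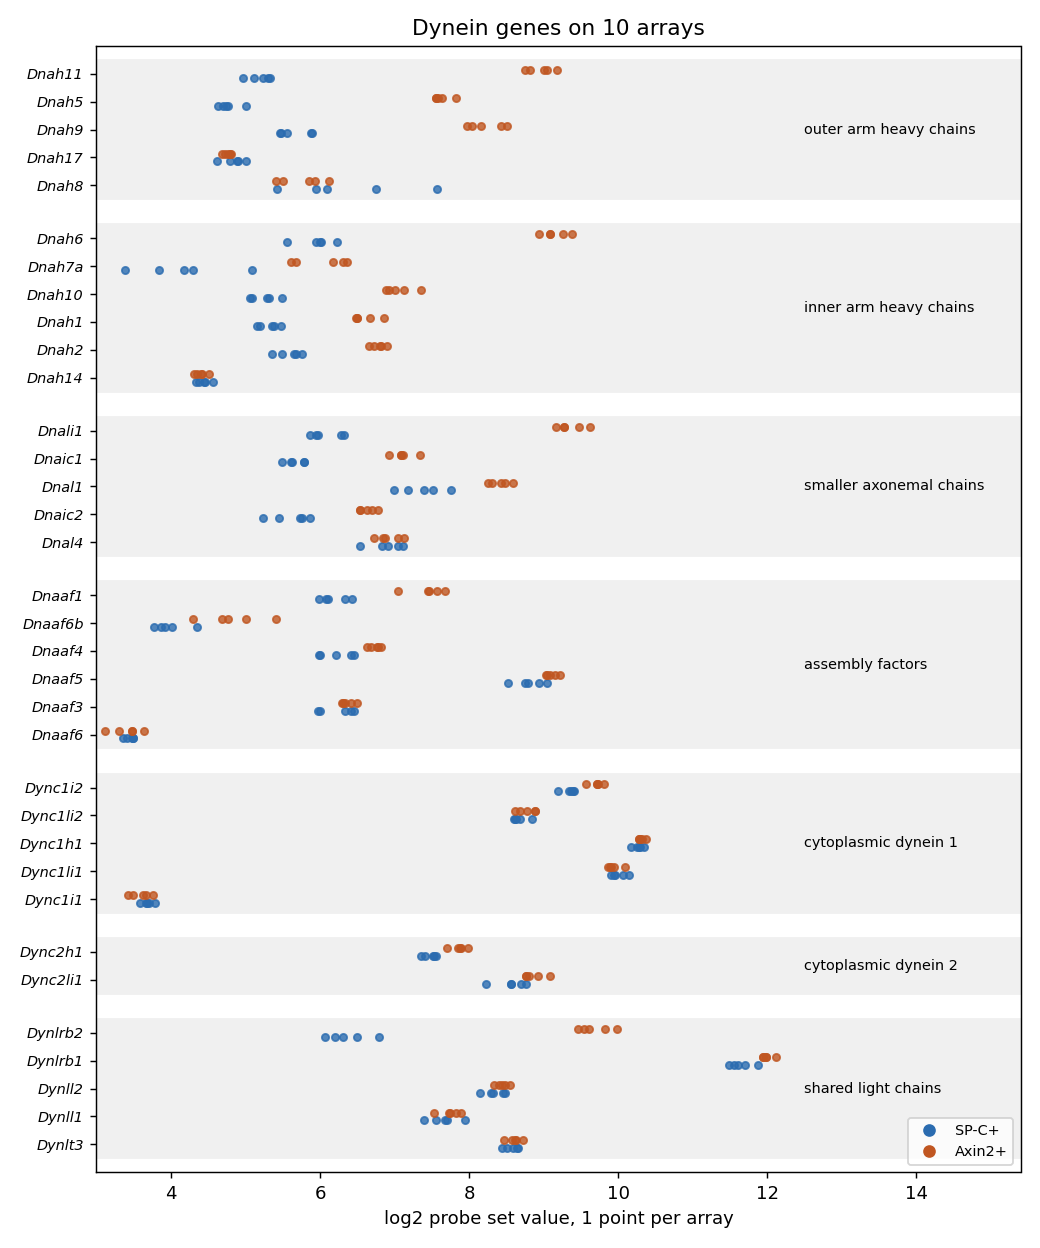
Value of each dynein gene on every array (x axis, log2 probe set value; 1 point per array, SP-C+ in blue and Axin2+ in orange), grouped by role. The Axin2+ points of 12 axonemal genes lie to the right of all SP-C+ points, whereas the points of Dync1h1, Dync1li1 and Dynlt3 are mixed; levels of different genes are not comparable on this axis.

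The outer arm heavy chains split into genes with large rises and genes without one. Dnah11, a heavy chain of the proximal outer arm also known for left-right asymmetry, measured 5.30, 5.23, 5.12, 4.96 and 5.33 on the SP-C+ arrays and 9.01, 8.75, 9.18, 9.05 and 8.82 on the Axin2+ arrays. No Axin2+ array came near the SP-C+ range, and the difference of 3.78 ± 0.10 SE (13.7-fold, adjusted p = 1.95e-10 in limma, exact permutation p = 0.00794) placed it 17 in the order of all 22180 genes by rise. Dnah5, the heavy chain most often mutated in primary ciliary dyskinesia, rose from 4.77 ± 0.14 (SD, n = 5) to 7.63 ± 0.12, by 2.86 ± 0.09 SE (limma, adjusted p = 2.77e-10). Dnah9, its partner in the distal outer arm, rose from 5.65 ± 0.22 to 8.22 ± 0.24, by 2.57 ± 0.13 SE (limma, adjusted p = 2.41e-08).

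The remaining outer arm genes, Dnah8 and Dnah17, encode heavy chains of the sperm flagellum. Dnah17 lay below the median gene on all arrays, at 4.84 ± 0.14 in SP-C+ and 4.75 ± 0.05 in Axin2+ arrays, with a difference of -0.09 (95% interval -0.26 to 0.09). Dnah8 measured 5.94, 6.10, 5.42, 6.75 and 7.57 on the SP-C+ arrays and 6.12, 5.50, 5.41, 5.85 and 5.93 on the Axin2+ arrays. SP-C+ replicates 4 and 5 stood above every other array and the groups overlapped. The difference of -0.60 ± 0.32 SE did not pass (adjusted p = 0.248 in limma, exact permutation p = 0.183). Leaving out SP-C+ replicates 1, 2 and 3 gave -1.40, which passed at an adjusted p of 0.00537, and leaving out replicates 4 and 5 gave -0.06, at 0.878.

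Among the inner arm heavy chains 5 of 6 were higher in Axin2+ arrays. Dnah6 measured 6.01, 5.55, 5.95, 6.00 and 6.23 on the SP-C+ arrays and 8.94, 9.08, 9.09, 9.38 and 9.26 on the Axin2+ arrays. The gap between the groups was wider than the range within either, and the difference was 3.21 ± 0.12 SE (9.23-fold, adjusted p = 2.09e-09 in limma, exact permutation p = 0.00794). Dnah7a rose by 1.87 ± 0.26, with the widest spread of the called heavy chains (3.38 to 5.09 in SP-C+ and 5.61 to 6.36 in Axin2+ arrays). A further probe set is shared by Dnah7a with its near copies Dnah7b and Dnah7c and was not used. Whether the set used also reads those copies is not given in the sources used here. Dnah10 and Dnah2, which pair in the double-headed inner arm, rose by 1.81 ± 0.11 and 1.20 ± 0.09, and Dnah1 by 1.29 ± 0.10. The adjusted p-values of these genes were 2.80e-04 or lower in limma. Dnah14 lay below the median gene on all arrays, with a difference of -0.03 (95% interval -0.19 to 0.12).

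Dnah2 had a second probe set with another result. The set used measured 5.59 ± 0.16 (SD, n = 5) in SP-C+ and 6.78 ± 0.09 in Axin2+ arrays. The second, dimmer set measured 5.01 ± 0.21 and 4.97 ± 0.10, a difference of -0.04 ± 0.11 SE that did not pass (adjusted p = 0.875 over all probe sets in limma). The mean of both sets still differed by 0.58 (adjusted p = 5.12e-04). Which transcripts each set reads is not given in the sources used here.

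Of the smaller axonemal chains 4 of 5 rose. Dnali1, a light intermediate chain of inner arms, measured 5.97, 6.32, 5.86, 5.94 and 6.28 on the SP-C+ arrays and 9.27, 9.16, 9.27, 9.48 and 9.62 on the Axin2+ arrays. All Axin2+ arrays stood far above all SP-C+ arrays, with a difference of 3.29 ± 0.12 SE (9.77-fold, adjusted p = 9.70e-10 in limma, exact permutation p = 0.00794). The outer arm intermediate chains Dnaic1 and Dnaic2, now named Dnai1 and Dnai2, rose by 1.45 ± 0.09 and 1.02 ± 0.12, and Dnal1, a light chain bound to an outer arm motor, by 1.05 ± 0.13. Dnal1 was the single called axonemal subunit that lay above the median gene on all SP-C+ arrays already (6.99 to 7.76). Dnal4, a light chain of the LC8 family, was 6.89 ± 0.22 in SP-C+ and 6.92 ± 0.16 in Axin2+ arrays and did not pass (adjusted p = 0.872 in limma).

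The assembly factors had smaller differences than the motors they build. Of 6 genes 3 rose and 0 fell in limma (0 also at an unadjusted p under 0.05), and their median difference was 0.41 against 1.37 for the axonemal subunits. Dnaaf1, a leucine-rich repeat protein, measured 6.33, 6.43, 6.11, 6.08 and 5.99 on the SP-C+ arrays and 7.04, 7.46, 7.45, 7.57 and 7.68 on the Axin2+ arrays. The groups were apart, and the difference was 1.25 ± 0.12 SE (2.38-fold, adjusted p = 1.15e-05 in limma, exact permutation p = 0.00794). Dnaaf4, a co-chaperone, rose by 0.52 ± 0.10, without overlap. Dnaaf5, a HEAT-repeat protein, was 0.30 ± 0.10 higher and missed the threshold (adjusted p = 0.0520 in limma), but passed under 7 of 21 alternative fits, at adjusted p-values from 0.0219 to 0.0440 (up to 0.159 in the others).

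Dnaaf3 changed its call with the probe set. The set with the higher mean measured 6.23 ± 0.23 (SD, n = 5) in SP-C+ and 6.37 ± 0.09 in Axin2+ arrays and did not pass (difference 0.13 ± 0.11 SE, adjusted p = 0.456 in limma). The second set, whose mean over all arrays was 6.22 against 6.30, measured 5.53, 5.95, 5.40, 5.77 and 5.82 on the SP-C+ arrays and 6.49, 6.52, 6.61, 7.15 and 6.93 on the Axin2+ arrays. These groups did not overlap, with a difference of 1.05 ± 0.15 SE (adjusted p = 9.01e-04 over all probe sets in limma), and the mean of both sets passed at 0.59 (adjusted p = 0.00205).

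**Figure D2:**
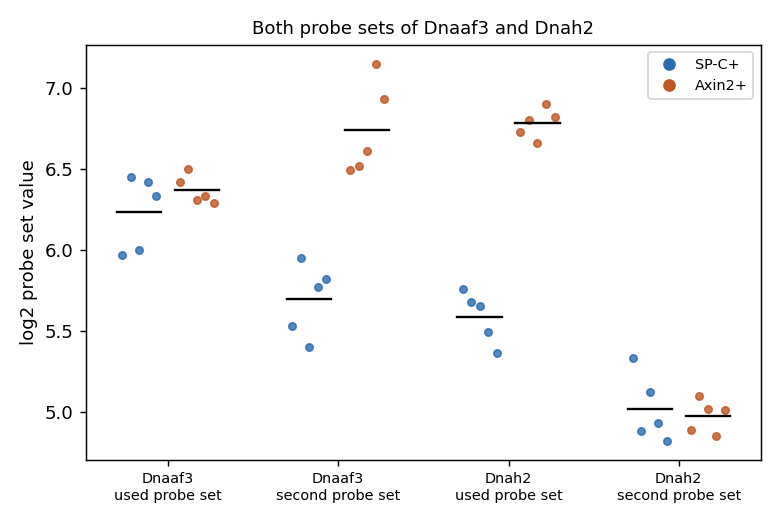
Values of both probe sets of Dnaaf3 and Dnah2 (y axis, log2 probe set value; points, arrays; lines, group means, n = 5). The groups separate on the second set of Dnaaf3 and on the set used for Dnah2, and overlap on the other sets.

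Dnaaf6 and Dnaaf6b are related genes, on chromosomes 1 and X in RefSeq, of which Dnaaf6b was higher. It measured 3.77, 3.92, 3.86, 4.35 and 4.02 on the SP-C+ arrays and 5.0, 4.77, 4.68, 4.29 and 5.41 on the Axin2+ arrays. Axin2+ replicate 4 lay within the SP-C+ range, and the difference was 0.84 ± 0.18 SE (adjusted p = 0.00533 in limma, exact permutation p = 0.0159), a call that ended when SP-C+ replicates 1, 2 and 3 were left out (0.64, at an adjusted p of 0.138). Dnaaf6 was near the bottom of the scale in both groups, with 3.45 ± 0.06 in SP-C+ and 3.40 ± 0.20 in Axin2+ arrays, and was not called (limma, adjusted p = 0.820). Their starts carry a nearly identical stretch, shown because it holds an X-box, the binding motif of RFX transcription factors of ciliogenesis (capitals; searched on both strands as GTTNCC, 2 bases of any kind and GGNAAC, found near the starts of 0.529% of 27025 RefSeq genes). These 30-base stretches agree at 27 positions.
Dnaaf6, chr1:31222772-31222801 (GRCm38.p6, + strand): acaaagttGTTACCCAGGCAACagagcaac
Dnaaf6b, chrX:140062864-140062893 (GRCm38.p6, + strand): acaaagttGTTACCCGGGCAACagagagac

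Cytoplasmic dynein 1 was close to level. Dync1h1, its heavy chain, measured 10.30, 10.26, 10.35, 10.17 and 10.28 on the SP-C+ arrays and 10.28, 10.30, 10.38, 10.32 and 10.28 on the Axin2+ arrays. The values were interleaved, and the difference of 0.04 had a 95% interval of -0.10 to 0.18 (adjusted p = 0.747 in limma, exact permutation p = 0.302). The light intermediate chains Dync1li1 and Dync1li2 differed by -0.06 (-0.23 to 0.10) and 0.09 (-0.08 to 0.27) and did not pass. The intermediate chain gene Dync1i2 was the 1 of 5 that rose. It measured 9.34, 9.41, 9.20, 9.40 and 9.37 on the SP-C+ arrays and 9.57, 9.73, 9.81, 9.72 and 9.72 on the Axin2+ arrays, without overlap, and the difference was 0.37 ± 0.07 SE (1.29-fold, adjusted p = 0.00392 in limma, exact permutation p = 0.00794). Its relative Dync1i1, expressed mainly in neurons, was at 3.68 ± 0.07 and 3.59 ± 0.14, near the bottom of the scale.

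Both dynein 2 genes had small positive differences. Dync2h1, the heavy chain, measured 7.41, 7.36, 7.55, 7.53 and 7.51 on the SP-C+ arrays and 7.89, 7.85, 7.71, 7.98 and 7.88 on the Axin2+ arrays. The groups did not overlap, and the difference was 0.39 ± 0.08 SE (1.31-fold, adjusted p = 0.00301 in limma, exact permutation p = 0.00794). Dync2li1, the light intermediate chain, was 0.31 ± 0.11 higher and missed the threshold (adjusted p = 0.0677 in limma, exact permutation p = 0.0159), passing under 2 of 21 alternative fits (adjusted p from 0.0404 to 0.211 over all of them).

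Among the shared light chains, close relatives differed. Dynlrb1 and Dynlrb2 encode the roadblock light chains, of which Dynlrb1 is widely expressed and Dynlrb2 is known from ciliated cells and testis. Dynlrb2 measured 6.79, 6.31, 6.50, 6.20 and 6.07 on the SP-C+ arrays and 9.46, 9.61, 9.54, 9.83 and 9.99 on the Axin2+ arrays. The groups were more than 2 units apart, with a difference of 3.31 ± 0.14 SE (9.93-fold, adjusted p = 5.70e-09 in limma, exact permutation p = 0.00794). Dynlrb1 measured 11.49, 11.55, 11.61, 11.88 and 11.70 on the SP-C+ arrays and 11.99, 11.99, 12.12, 11.94 and 11.95 on the Axin2+ arrays. It did not overlap either, but its difference was 0.36 ± 0.09 SE (1.28-fold, adjusted p = 0.0105 in limma, exact permutation p = 0.00794), and the call ended when SP-C+ replicates 1, 2 and 3 were left out (0.22, at an adjusted p of 0.181).

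The 250 bases before a start of each gene are shown because the expression of these genes diverged. Capitals mark a short palindrome of RFX motif arms (GTTGC, 3 bases of any kind, GCAAC). It lay in the window of Dynlrb2 and in neither window of Dynlrb1, of which the upstream one is shown, and in 0.252% of all genes. The palindrome was chosen after the windows had been read and with the rises known, so whether it goes with the divergence was not tested.
Dynlrb2, chr8:116504765-116505014 (GRCm38.p6, + strand): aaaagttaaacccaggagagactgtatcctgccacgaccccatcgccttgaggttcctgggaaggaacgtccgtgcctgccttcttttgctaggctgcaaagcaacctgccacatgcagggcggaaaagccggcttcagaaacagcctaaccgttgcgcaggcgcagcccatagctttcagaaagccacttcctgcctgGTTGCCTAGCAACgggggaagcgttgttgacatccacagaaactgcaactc
Dynlrb1, chr2:155236283-155236532 (GRCm38.p6, + strand): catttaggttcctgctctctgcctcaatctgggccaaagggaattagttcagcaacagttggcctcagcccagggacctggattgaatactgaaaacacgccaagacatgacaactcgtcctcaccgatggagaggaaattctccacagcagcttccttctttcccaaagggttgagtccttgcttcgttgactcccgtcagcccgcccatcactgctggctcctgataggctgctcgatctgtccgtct

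The other light chains did not pass. Of the LC8 genes, Dynll1 measured 7.55, 7.95, 7.71, 7.40 and 7.68 on the SP-C+ arrays and 7.83, 7.53, 7.89, 7.75 and 7.73 on the Axin2+ arrays. Dynll2 measured 8.32, 8.46, 8.48, 8.15 and 8.29 on the SP-C+ arrays and 8.55, 8.33, 8.48, 8.44 and 8.40 on the Axin2+ arrays. Both pairs of groups overlapped, with differences of 0.09 (95% interval -0.14 to 0.32) and 0.10 (-0.08 to 0.28). Dynlt3, a light chain of the Tctex family, differed by 0.03 (-0.13 to 0.19). The Dynlt1 genes share their probe sets with each other and were not analysed here.

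**Figure D3:**
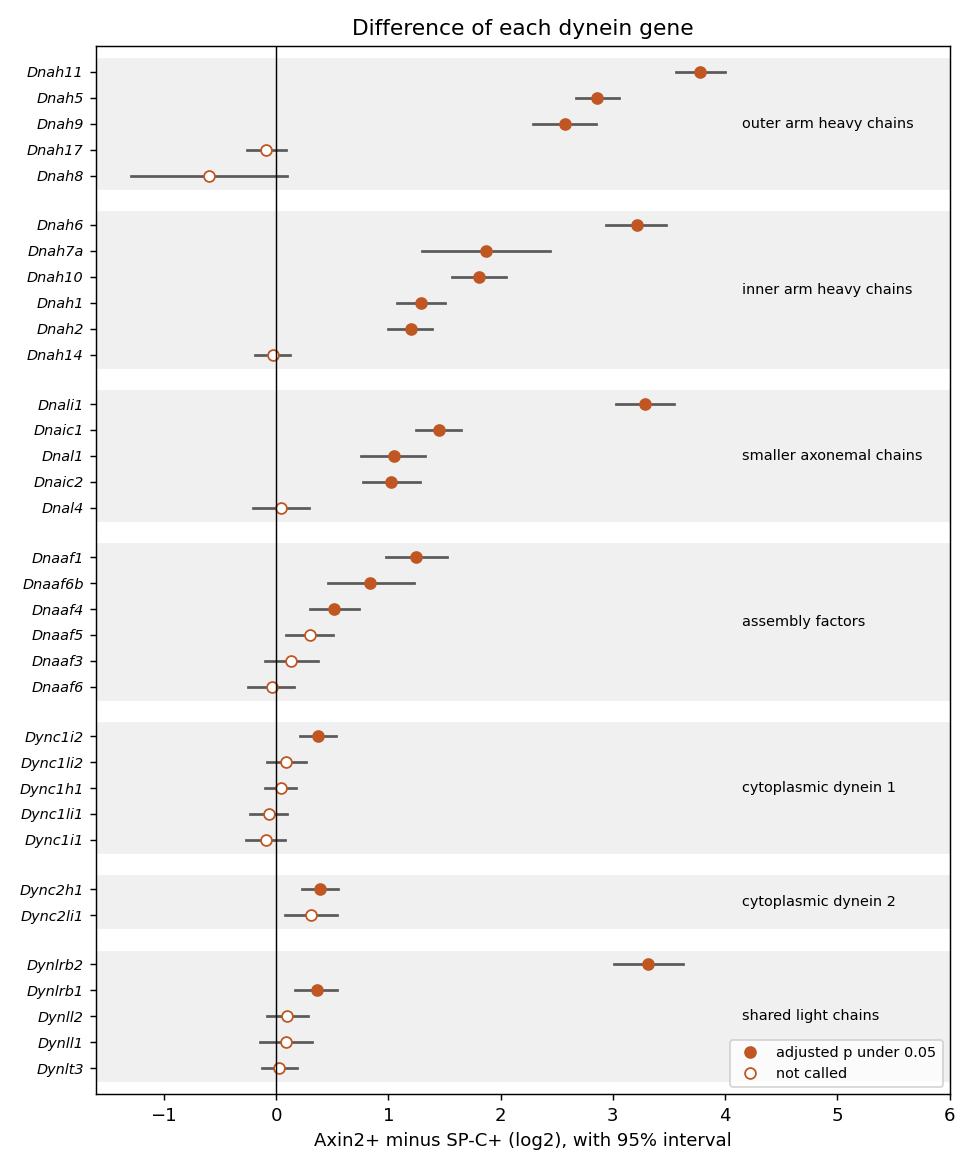
Difference between Axin2+ and SP-C+ arrays for each dynein gene (x axis, log2; bars, 95% intervals from limma; filled points, adjusted p under 0.05). Axonemal genes reach 3.78, whereas the Dync genes lie between -0.09 and 0.39 and Dynlrb2 stands alone among the light chains at 3.31.

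Set side by side, the branches had medians of different size. Of the 16 axonemal subunits 12 were higher and 0 lower in limma (0 also at an unadjusted p under 0.05), with a median of 1.37 and a range from -0.60 to 3.78. Of the 12 cytoplasmic and shared genes 4 were higher and 0 lower (0 unadjusted), with a median of 0.10, or 2 of 7 and a median of 0.09 for the Dync genes alone. Over all 22180 genes 8.61% were higher and 8.95% lower, with a median of -0.04. At least 2-fold rises were found for 12 axonemal genes, 1 assembly factor and 1 light chain. Dnah11, Dnah6, Dnali1 and Dynlrb2 rose at least 8-fold, as 0.271% of all genes did. In 12 axonemal, 2 assembly and 4 cytoplasmic genes every Axin2+ array was above every SP-C+ array, as in 7.38% of all genes (15.0% were apart in either direction). These counts describe the lists, and the difference between the lists was not tested.

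Within the groups the mean of all 16 axonemal genes, called or not, varied little beside the gap between them. It lay between 5.47 and 5.67 on the SP-C+ arrays and between 7.0 and 7.24 on the Axin2+ arrays. Of the 12 higher axonemal genes, 6 had their highest Axin2+ value on replicate 4 and 4 on replicate 5, while replicate 2 was never the highest. All 12 remained called when any single array was left out, and when SP-C+ replicates 1, 2 and 3, or 4 and 5, were left out.

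Pairs of related genes were compared by their difference within each array, over 10 pairs with p-values adjusted across them. The pairs were chosen after the values of their genes were seen. Their p-values therefore describe the chosen pairs and add no independent support to the single-gene results. Dnaaf6 and Dync1i1 lay near the bottom of the scale and Dnah17 lay below the median gene on all arrays, which limits their pairs. Dynlrb2 rose by 2.95 ± 0.22 (SE) more than Dynlrb1, and the arrays of the groups did not overlap in this difference (exact permutation p = 0.00794, adjusted p = 0.0159). The group difference of Dnah5 was larger than that of Dnah8 by 3.46 ± 0.42, which rests partly on SP-C+ replicates 4 and 5. Without them Dnah8 differed by -0.06. The group differences of Dnah11 and Dnah9 were larger than that of Dnah17 by 3.87 ± 0.14 and 2.66 ± 0.18. All 3 had the same exact p and adjusted p. Dnaaf6b rose by 0.89 ± 0.18 more than Dnaaf6 (exact permutation p = 0.0159, adjusted p = 0.0227), and Dync2h1 by 0.35 ± 0.08 more than Dync1h1 (the same p-values). Dync1i2 rose by 0.46 ± 0.08 more than Dync1i1, and Dnaic1 by 0.42 ± 0.14 more than Dnaic2 (exact permutation p = 0.00794 and 0.0317, adjusted p = 0.0159 and 0.0397). Dynll1 and Dynll2 differed by -0.01 ± 0.06 and Dync1li1 and Dync1li2 by -0.16 ± 0.10, neither of which passed (exact permutation p = 0.825 and 0.143, adjusted p = 0.825 and 0.159).

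**Figure D4:**
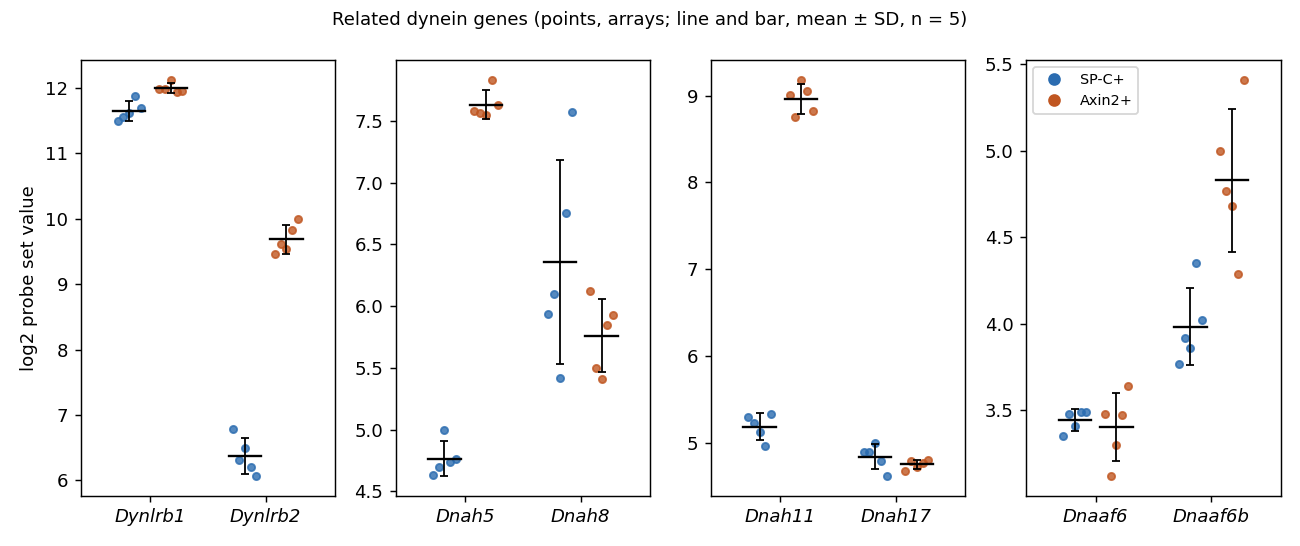
Values of 4 pairs of related dynein genes (y axis, log2 probe set value, scaled separately in each panel; points, arrays; line and bar, mean ± SD, n = 5). Dynlrb2, Dnah5 and Dnah11 separate the groups by 2.86 or more, while Dnah17 and Dnaaf6 overlap and Dnah8 spreads widely in SP-C+ arrays.

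Promoter windows of 300 bases, from 250 before to 50 after a gene's start, were held by RefSeq for 30 of the 34 genes, leaving out Dnaaf1, Dync1li2, Dync2li1 and Dynll2. Ciliary genes are known targets of RFX factors and of the forkhead factor Foxj1, so 4 motifs were searched on both strands. The RFX core GTTGCC was held by 3 of 16 axonemal genes, 4 of 5 assembly factors and 5 of 9 cytoplasmic genes, against 14.1% of 27025 genes. Among the cytoplasmic carriers, Dynll1 and Dync1i1 did not rise. The X-box with both arms lay in 0 of 16 axonemal and 0 of 9 cytoplasmic genes. It lay in 2 of 5 assembly factors, Dnaaf6 and Dnaaf6b, of which Dnaaf6 was not called, against 0.529% of all genes. The forkhead motif TGTTTAC was found in the window of Dnah17 alone, against 4.05% of all genes. The short palindrome of GTTGC, 3 bases of any kind and GCAAC, which can overlap the core and was added after the windows had been read, lay in the windows of 0.252% of all genes. Dnah7a, Dnaic2 and Dynlrb2 were among the dynein genes that held it. These genes were each at least 2-fold higher in Axin2+ arrays. Most of the axonemal genes that were higher, among them Dnah5, Dnah9, Dnah10, Dnah1 and Dnaic1, lacked the palindrome. It was chosen with these rises known, so whether it goes with them was not tested. A match is a description of letters and not of binding.
Dnah7a, chr1:53706821-53706850 (GRCm38.p6, - strand): cgccagtttGTTGCTTAGCAACgaatcgac
Dnaic2, chr11:114727377-114727406 (GRCm38.p6, + strand): ccggccaggGTTGCTAGGCAACtggtaaac
The capitals mark the palindrome, which began at -57 and -33 from the starts of Dnah7a and Dnaic2 and at -51 from that of Dynlrb2. Dnah11 and Dnali1 held none of the 4 motifs.

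Genes that work beside the axonemal dyneins rose with them. Over 4 lists of 33 genes, 27 were higher and 0 lower in limma (0 also at an unadjusted p under 0.05), with a median of 1.03. All 9 measured genes of the nexin-dynein regulatory complex and the ruler that spaces the arms were higher, by a median of 2.11, led by Fbxl13 at 2.46 ± 0.11 (SE). Docking and targeting genes of the outer arm rose in 5 of 6 cases, led by Efcab1, which encodes calaxin, from 3.90 ± 0.36 (SD, n = 5) to 7.75 ± 0.26, by 3.85 ± 0.17 SE (14.4-fold; limma, adjusted p = 6.92e-09). Dynein subunits with other names rose in 5 of 6 cases, led by Wdr63, an intermediate chain of inner arms, at 2.61 ± 0.12. Assembly factors with other names rose in 8 of 12 cases, with a median of 0.45, led by Lrrc6 at 2.90 ± 0.13 and below 1 in all but Lrrc6 and Zmynd10 (1.98 ± 0.10). Ccdc40 of the ruler also stands among the multiciliated cell markers.

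The partners of the cytoplasmic dyneins moved both ways, with all called falls among the adaptors and regulators of dynein 1. Of 9 genes that work with dynein 2 in retrograde intraflagellar transport 5 rose and 0 fell (0 unadjusted), with a median of 0.44, led by Ift122, a subunit of its cargo complex, at 0.91 ± 0.16. Dynactin, the cofactor that makes dynein 1 processive, had 1 higher gene of 10, the capping protein gene Capzb at 0.50 ± 0.07, and 0 lower. That is near the 8.61% of all genes called higher. At an unadjusted p under 0.05, 5 were higher and 0 lower, against 2750 and 3746 of all 22180 genes. Among 19 adaptors and regulators of dynein 1, 3 rose and 5 fell, with a median of -0.12. The largest rise was that of Bicd2, an adaptor of vesicles and nuclei, at 0.64 ± 0.10 (adjusted p = 6.35e-04 in limma). Rilp, which links dynein to late endosomes and lysosomes, fell from 10.01 ± 0.14 to 9.41 ± 0.15 (difference -0.60 ± 0.10 SE, adjusted p = 7.45e-04 in limma). Over all 38 genes of these lists the median was 0.07, and -0.03 after median centring, which moved the median of all genes by -0.09.

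**Figure D5:**
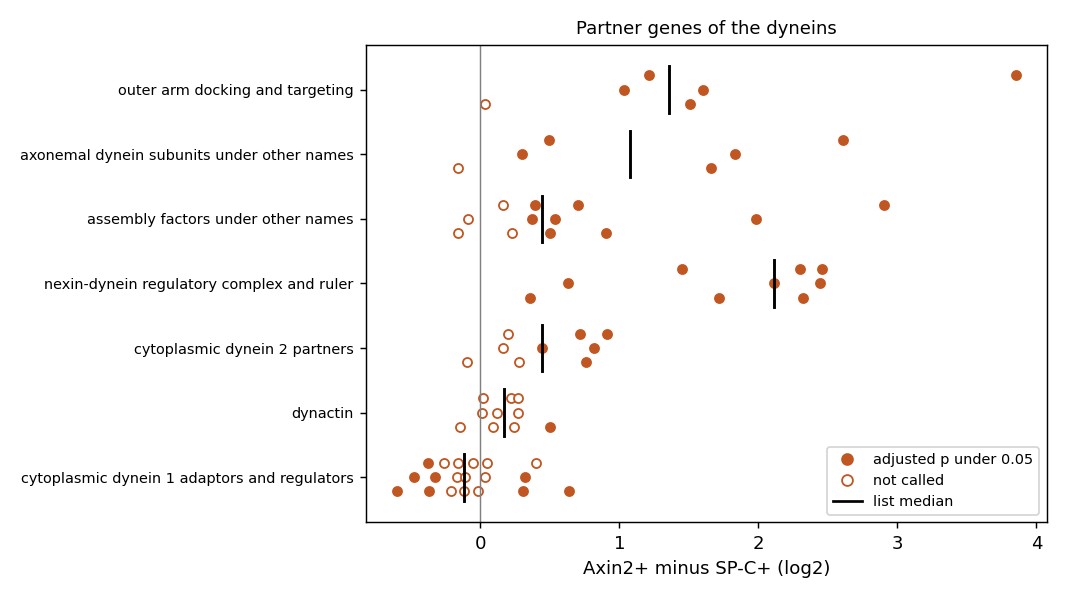
Differences of partner genes by list (x axis, Axin2+ minus SP-C+, log2; points, genes, filled where the adjusted p was under 0.05; lines, list medians). Medians run from 2.11 for the nexin-dynein regulatory complex and ruler to -0.12 for adaptors and regulators of dynein 1.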

How the data were processed

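Expression in sorted lung epithelium of mice was read on 10 arrays, 5 per group. The authors deposited log2 values of 41345 probe sets, already normalized; oligo, RMA and limma are listed in the submitters' processing notes, with no version or role, and the log base was read off the values (1.69 to 14.16). Background signal that remains in such values can understate changes of dim genes, which was not tested here. The number of arrays limits the precision, and no value says whether a probe set was detected.

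The platform's annotation gave 23521 probe sets exactly 1 symbol. Each of 22180 genes was read from its brightest probe set, by the mean of the 10 arrays. The groups, taken from the sample titles, were compared over all of them by limma's moderated test (version 3.58.1, R 4.3.3, two-sided, without covariates). Calls needed a p below 0.05 after Benjamini-Hochberg adjustment, and a positive difference means a higher value in Axin2+. Exact permutation tests enumerated 252 assignments of the arrays, so that no exact p could fall below 0.00794. On simulated data with 22180 genes, of which 200 were changed, the fit recovered 62% of genes changed by 0.5 and 98% of those changed by 1. Of its calls, 5.76% were false. On the real arrays 17.6% of genes were called, so these shares need not hold there.

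Members and gene lists were chosen with earlier results of these data known, so no set test was made. Values on every array are given, by rule, for the called gene with the largest difference in each role, both cytoplasmic heavy chains and related light chains; in each partner list the largest called rise and fall are named. Other genes given in full, the pairs of related genes and the promoter motifs were chosen after their values were seen. No label says that replicates are separate animals, so p-values measure the spread between these samples, which may be technical. Same-numbered arrays did not deviate together (correlations of -0.23 to 0.01), so the replicate number was not treated as a pairing. No array batch was recorded in the sources used here. Promoter windows came from RefSeq (GRCm38.p6). Of the promoter matches found, 1 is not reported here. Alternatives tried were the replicate block, median centring, quantile normalization, filters at the 25th and 50th percentiles, the mean over probe sets, all probe sets, array weights, robust variances with an intensity trend, leaving out arrays, stricter thresholds and other class borders.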

Additional observations from a re-analysis of the deposited data

Results flagged for a closer look

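On Axin2+ replicate 3, Dynlrb1 measured 12.12, against 11.94 to 11.99 on the other Axin2+ arrays, a gap wide for a group of 5. It was the 1 such case in 68 groups of arrays examined (34 genes in 2 groups), and chance gives about 1 in 20.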

How the results depend on the processing

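Of 34 genes 28 kept their call, and their direction where they were called, in every alternative fit that included them (19 to 21 per gene), and 0 called genes reversed; Dnaaf3, Dnaaf5, Dnaaf6b, Dnah8, Dync2li1 and Dynlrb1 changed a call, the cause of which was not tested. With the replicate block the counts of higher genes stayed at 12 axonemal, 3 assembly and 4 cytoplasmic. Without 1 array, axonemal, assembly and cytoplasmic medians ran from 1.31 to 1.40, 0.35 to 0.45 and 0.07 to 0.14, with 12, 3 to 4 and 4 to 5 genes higher; partners of the axonemal side had 25 to 27 higher genes and a median of 0.88 to 1.10, and of the cytoplasmic side 7 to 9 higher, 3 to 5 lower (3 without SP-C+ replicate 2 or Axin2+ replicate 1) and a median of 0.05 to 0.09. The axonemal median was 1.27 after median centring, 1.45 among genes above the 25th percentile, 2.57 above the 50th (6 of the 7 genes left were higher) and 1.12 with assembly factors included. Without SP-C+ replicates 1, 2 and 3 there was 1 lower axonemal gene, Dnah8, the cytoplasmic median was 0.21, the axonemal partners' median 0.90 and the lower cytoplasmic partners numbered 1. With the mean over probe sets the assembly median was 0.55. Requiring 2-fold left 1 assembly factor, 1 cytoplasmic gene, 17 axonemal partners and 0 cytoplasmic partners in either direction; Dync genes alone gave 2. At an adjusted p under 0.01, 3 cytoplasmic partners were lower. Above the 50th percentile 17 of 20 axonemal partners were higher, and median centring gave 1 lower axonemal partner and a cytoplasmic partners' median of -0.03. Dnah14, Dnah17, Dnaaf6 and Dync1i1 were dim, which limits what their levels show. The called genes Dnaaf6b and Dnah7a also lay below the median gene on all arrays, and the same limit holds for them.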
